A study of Mus musculus with 15 samples.

Results

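Transcript levels of 9 genes of hepatic glucose production and glycogen metabolism were measured by RNA sequencing of mouse liver. The genes were selected by name, with earlier results of these data known: Pck1, G6pc, Fbp1, Slc37a4, Pcx, Ppargc1a, Pygl, Gys2 and Gbe1. Each matched a single row of the 24411 gene rows in the count files, and all 9 were among the 13055 genes that passed the filter on low counts. The libraries form 3 groups in one tissue: 5 labelled Yap OE (YAP_OE here), read as Yap overexpression, 6 labelled LATS KO (LATS_KO here), read as loss of LATS, and 4 control libraries labelled TdTomato, the name of a red fluorescent protein. YAP is a transcriptional coactivator that drives liver growth, and the LATS kinases hold it in check as part of Hippo signalling. The labels give no promoter or Cre driver, delivery route, strain, age, sex, feeding state, time of day or allele that all groups share, and nothing was taken from their extraction protocol, which speaks of animals of a different design. Whether feeding state or time of day, which these genes follow, differed between the groups was not tested.

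Between 6166680 and 28225360 reads per library were assigned to genes. LATS_KO 3 and TdTomato 1 were poorly mapped, with an unmapped share of 89.9% and 78.5% where no other library exceeded 16.7%, and with 9710 and 8501 genes detected where no other library had fewer than 13372, so results are given with and without this pair. Yap1 lay between 146 and 212 CPM (the read count scaled to a common total of reads assigned to genes, after correction by TMM, the trimmed mean of M values) in YAP_OE libraries and between 94.9 and 115 CPM in TdTomato libraries (log2 fold change 0.82, adjusted p = 0.0043, edgeR). The counts do not settle the knockout label. The edgeR comparison of all 15 libraries gave an adjusted p of 0.62 for Lats1 and of 0.70 for Lats2. Mean Lats1 was 15.5 CPM under that label beside 29.8 CPM in TdTomato libraries, and mean Lats2 21.0 CPM beside 14.0 CPM. TdTomato 1 and LATS_KO 3 both held 0 CPM of Lats1. Without this pair every LATS_KO library was below every TdTomato library in Lats1, at most 27.4 CPM against at least 28.7 CPM. In Lats2 the LATS_KO libraries then lay on both sides of the control range. The labels do not say which part of either gene was deleted. LATS_KO therefore means the libraries labelled so throughout. Summed over 8 hepatocyte markers such as Alb and Apoa1, the level lay between 107471 and 176616 CPM in YAP_OE, between 74391 and 205352 CPM in LATS_KO and between 119782 and 200355 CPM in TdTomato libraries, so these markers of the labelled tissue were abundant in every library.

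Between meals the liver releases glucose that it makes from lactate, amino acids and glycerol or frees from glycogen. Pyruvate carboxylase (Pcx) and phosphoenolpyruvate carboxykinase (Pck1) carry carbon past the irreversible pyruvate kinase step, fructose-1,6-bisphosphatase (Fbp1) reverses phosphofructokinase, and glucose-6-phosphatase (G6pc), fed by the glucose-6-phosphate transporter of the endoplasmic reticulum (Slc37a4), frees glucose. Glycogen is built by glycogen synthase (Gys2) and branching enzyme (Gbe1) and broken down by glycogen phosphorylase (Pygl). Glucagon and glucocorticoids raise and insulin lowers the transcription of Pck1 and G6pc, and the coactivator PGC-1α (Ppargc1a) takes part in the fasting response.

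RefSeq promoter windows of GRCm38.p6, from 250 bases before to 50 bases after a gene's start, were matched by symbol for 8 of the 9 genes, with 11 windows in all, and Gys2 was not among them. Searched on both strands, the core of the cAMP response element (TGACGT, or ACGTCA on the other strand), through which glucagon signalling is known to act on Pck1, was in windows of Pck1, Slc37a4 and Ppargc1a, and in 7.51% of all 32851 windows. The core of the insulin response unit (CAAAACA, or TGTTTTG) was in that of G6pc and in 6.28% of all windows. No window of the 8 genes held the core bound by TEAD factors, the DNA-binding partners of YAP (CATTCC, or GGAATG), which 14.7% of all windows held. None of the 3 motifs contains another. The windows with a match are shown because they include the 2 genes with the lowest fold changes in YAP_OE, Pck1 and G6pc, and set a gene that fell (Slc37a4) beside a gene that did not pass the test (Ppargc1a) with the same core; capitals mark the match, a description of the letters only. The Pck1 window is chr2:173152823-173153122 on the plus strand, with the match starting at position -91 from the start. That of G6pc is chr11:101367466-101367765 on the plus strand, with the match at -174. The Slc37a4 window shown, of 3, is chr9:44396696-44396995 on the plus strand, with the match at -61, and a second, overlapping window holds the same site. The Ppargc1a window is chr5:51567676-51567975 on the minus strand, with the match at -50.
Pck1: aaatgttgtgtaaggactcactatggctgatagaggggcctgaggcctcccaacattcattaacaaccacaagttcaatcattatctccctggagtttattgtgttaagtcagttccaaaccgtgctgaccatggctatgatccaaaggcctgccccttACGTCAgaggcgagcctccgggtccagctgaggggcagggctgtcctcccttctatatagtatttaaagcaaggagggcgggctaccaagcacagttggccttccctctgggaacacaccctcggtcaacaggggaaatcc
G6pc: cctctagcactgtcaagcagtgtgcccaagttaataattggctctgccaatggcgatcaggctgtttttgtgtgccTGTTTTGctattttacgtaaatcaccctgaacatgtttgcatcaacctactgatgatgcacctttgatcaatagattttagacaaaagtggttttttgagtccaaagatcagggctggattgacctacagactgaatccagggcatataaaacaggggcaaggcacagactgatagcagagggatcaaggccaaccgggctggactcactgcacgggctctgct
Slc37a4: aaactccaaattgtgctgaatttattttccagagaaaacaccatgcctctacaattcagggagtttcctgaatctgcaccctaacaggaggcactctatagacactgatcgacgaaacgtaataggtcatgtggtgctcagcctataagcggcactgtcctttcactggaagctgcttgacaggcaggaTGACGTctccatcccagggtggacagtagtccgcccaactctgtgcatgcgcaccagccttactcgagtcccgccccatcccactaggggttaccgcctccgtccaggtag
Ppargc1a: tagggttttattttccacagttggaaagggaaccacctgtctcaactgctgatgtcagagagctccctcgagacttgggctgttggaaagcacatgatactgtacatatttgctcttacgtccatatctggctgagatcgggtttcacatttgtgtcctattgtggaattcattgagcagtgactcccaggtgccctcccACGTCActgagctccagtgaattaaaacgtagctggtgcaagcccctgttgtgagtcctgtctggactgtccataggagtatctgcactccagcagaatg

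In YAP_OE livers most of the 9 genes were low, with the lowest fold changes in Pck1, G6pc and Gys2. Of the 9 genes, 6 fell against TdTomato (Pck1, G6pc, Slc37a4, Pcx, Pygl and Gys2), none rose, and Fbp1, Ppargc1a and Gbe1 did not pass the test (edgeR's quasi-likelihood test, Benjamini-Hochberg adjustment over all 13055 genes, threshold 0.05). Over all genes tested, 10.8% were called lower and 28.7% were called in either direction. The median log2 fold change was -1.29 over the 9 genes and 0.17 over all genes tested. Without TdTomato 1 and LATS_KO 3, 7 of the 9 were called lower against a background of 21.2% called lower, Fbp1 being added. In whole liver, fewer cells of a type and less RNA per cell cannot be told apart, which holds for every value below.

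Pck1 (2:173153048-173159273, GRCm38), the committed step of gluconeogenesis, changed most. It had 173, 387, 723, 436 and 549.6 CPM in YAP_OE libraries 1 to 5, against 3921, 3921, 7365 and 7252 CPM in TdTomato libraries 1 to 4. The highest YAP_OE library lay below the lowest TdTomato library by a wide margin, and the group means were 454 ± 203 CPM (SD, n = 5) in YAP_OE and 5615 ± 1956 CPM (SD, n = 4) in TdTomato. The log2 fold change was -3.63 ± 0.62 (SE, adjusted p = 0.0021), the 66th lowest of 13055, for a gene that ranked 23rd by mean CPM in the controls.

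G6pc (11:101367561-101377903), which catalyses the last step of glucose release, had 27.2, 96.4, 178, 36.0 and 109 CPM in YAP_OE libraries, against 583, 812, 806 and 566 CPM in TdTomato libraries. No YAP_OE library reached the control range, and the YAP_OE libraries varied more, relative to their mean, than the controls did. The log2 fold change was -2.95 ± 0.79 (SE, adjusted p = 0.013). Its transporter partner Slc37a4 (9:44396852-44402968) had 87.3, 72.3, 67.2, 69.5 and 98.4 CPM in YAP_OE libraries, against 112, 191, 205 and 212 CPM in TdTomato libraries. The groups were separate, with the poorly mapped TdTomato 1 the lowest control, and the log2 fold change was -1.19 ± 0.30 (adjusted p = 0.0099) with that library and -1.36 (adjusted p = 0.0019) without it and LATS_KO 3.

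Pcx (19:4510472-4621752), the mitochondrial entry step, had 398, 399, 427, 449.6 and 224 CPM in YAP_OE libraries, against 480.4, 738, 833 and 752 CPM in TdTomato libraries. All YAP_OE libraries were below all controls, YAP_OE 5 standing well under the other 4. Its log2 fold change of -0.88 ± 0.30 (adjusted p = 0.039) was the smallest among the calls, and the call was lost on leaving out any YAP_OE library or any of TdTomato 2, 3 and 4 (adjusted p 0.057 to 0.095). Fbp1 (13:62864753-62888282) had 655, 519.7, 480.2, 469 and 908 CPM in YAP_OE libraries, against 1470.0, 1507, 1388 and 1568 CPM in TdTomato libraries. The groups did not overlap, yet the log2 fold change of -1.29 ± 0.48 missed the threshold (adjusted p = 0.057), in a fit whose spread also comes from the LATS_KO libraries, which held 231 to 1583 CPM. With only the YAP_OE and TdTomato libraries in the fit the value was again -1.29, with adjusted p = 0.0013.

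**Figure D1:**
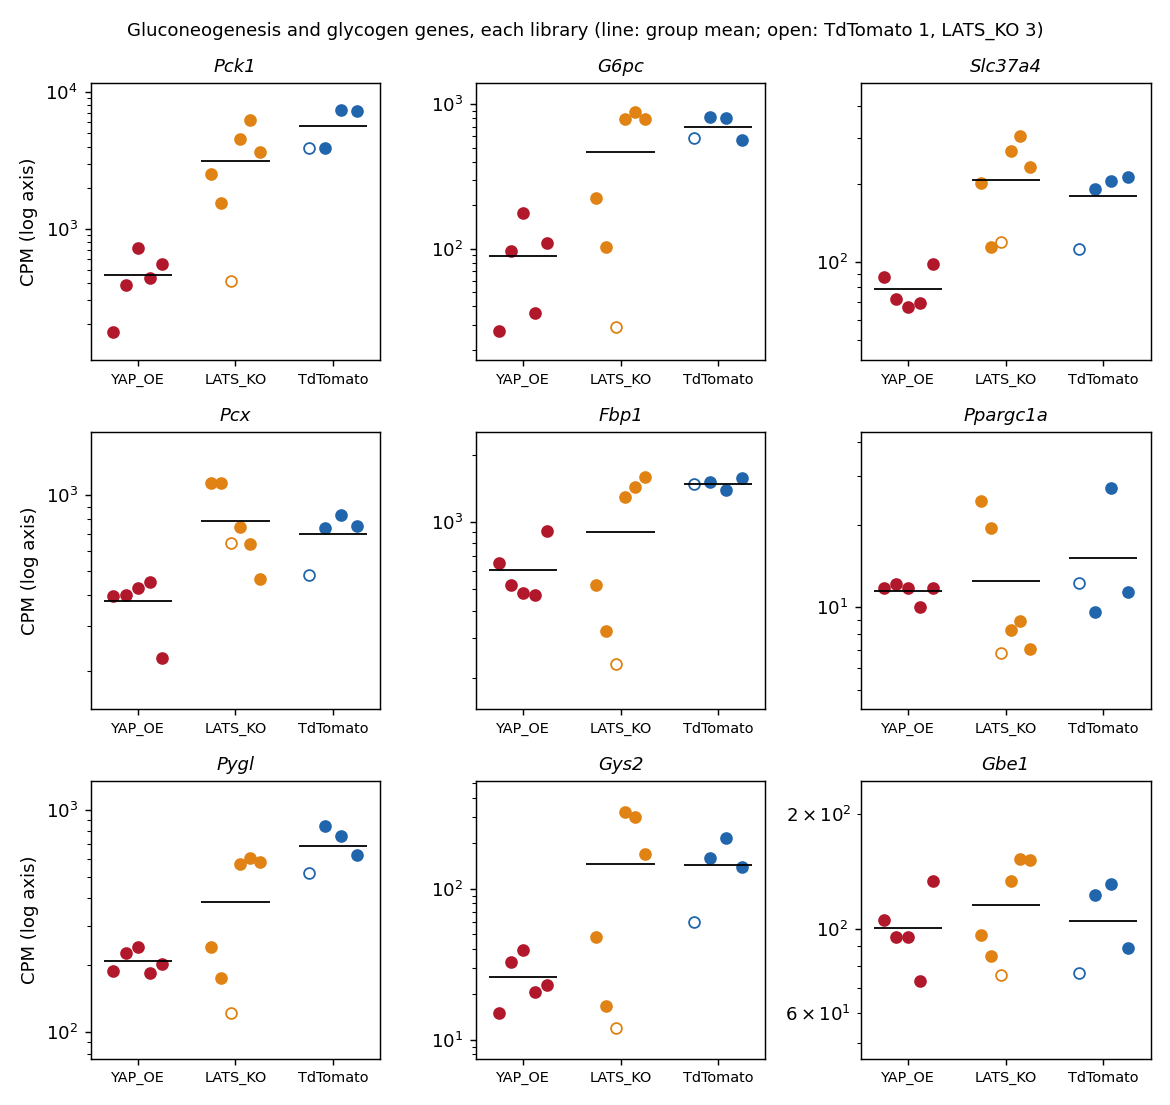
CPM of each of the 9 genes in every library on log axes, with YAP_OE, LATS_KO and TdTomato from left to right, points for libraries, lines for group means and open points for the poorly mapped TdTomato 1 and LATS_KO 3. The YAP_OE points of Pck1 sit between 173 and 723 CPM, all below the TdTomato points, while the LATS_KO points of Pck1 run from 409.7 to 6259 CPM.

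Ppargc1a (5:51454250-51567726), the coactivator, had the lowest level per kilobase of exon of the 9. It had 11.8, 12.1, 11.7, 10.01 and 11.7 CPM in YAP_OE libraries, against 12.2, 9.60, 27.2 and 11.3 CPM in TdTomato libraries. The YAP_OE libraries lay inside the control range, which TdTomato 3 alone stretched upward. The log2 fold change was -0.40 ± 0.46 (adjusted p = 0.57), and 0.05 without TdTomato 3.

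Among the glycogen genes, phosphorylase and synthase both fell, while branching enzyme did not pass the test. Pygl (12:70190811-70231488), the liver phosphorylase, had 189, 228, 241, 184 and 202 CPM in YAP_OE libraries, against 520.4, 844, 762 and 624 CPM in TdTomato libraries. The YAP_OE values were tight and wholly below the controls, with a log2 fold change of -1.72 ± 0.42 (adjusted p = 0.0086). Gys2 (6:142422613-142473109), the liver synthase, had 15.02, 32.8, 39.2, 20.7 and 23.2 CPM in YAP_OE libraries, against 60.3, 159.9, 216 and 139 CPM in TdTomato libraries. Again no libraries of the groups overlapped, with TdTomato 1 lowest among controls, and the log2 fold change was -2.46 ± 0.79 (adjusted p = 0.030). That call was lost on leaving out any of TdTomato 2, 3 and 4 or YAP_OE 1, 2, 4 and 5 (adjusted p 0.051 to 0.071), and without TdTomato 1 and LATS_KO 3 the value was -2.72 (adjusted p = 0.0073). Gbe1 (16:70313949-70569716) had 105, 95.5, 95.2, 72.9 and 133 CPM in YAP_OE libraries, against 76.4, 123, 131 and 89.2 CPM in TdTomato libraries. The ranges overlapped almost wholly, with a log2 fold change of -0.06 ± 0.26 (adjusted p = 0.90).

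In 7 of the 9 genes, all but Ppargc1a and Gbe1, every YAP_OE library was below every TdTomato library, which held for 13.4% of all genes tested. The calls of Pck1, G6pc, Slc37a4 and Pygl stayed past the threshold on leaving out any single library.

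**Figure D2:**
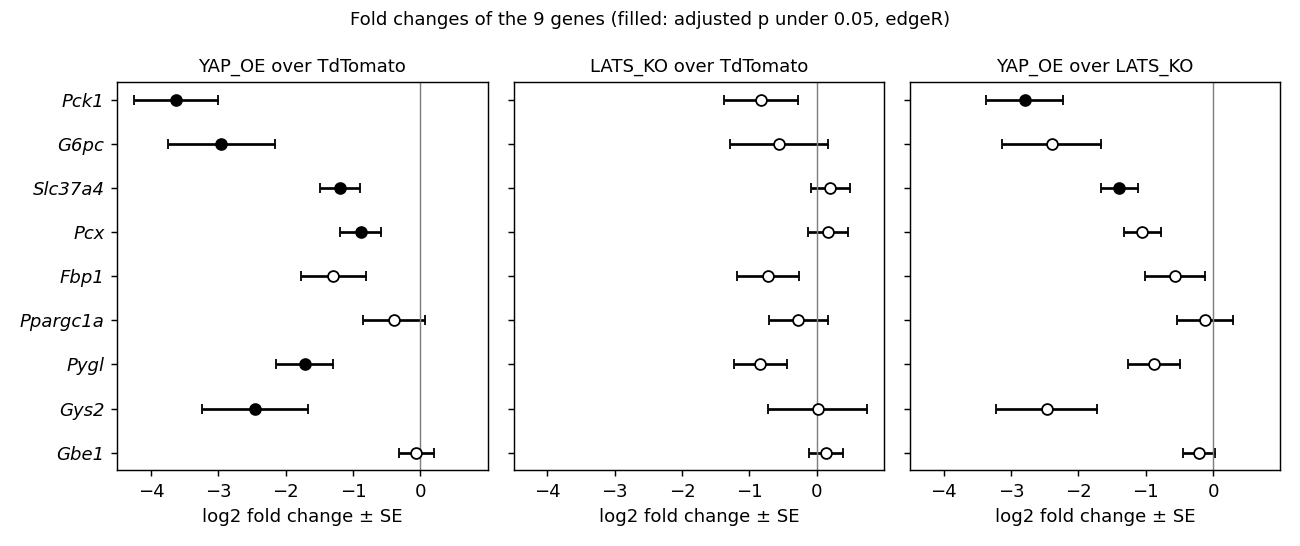
Log2 fold change with its standard error (edgeR, all 15 libraries in the fit) of the 9 genes for YAP_OE over TdTomato, LATS_KO over TdTomato and YAP_OE over LATS_KO, with filled points for an adjusted p under 0.05. The first panel holds 6 filled points, all below 0, the second none, and the third 2, Pck1 at -2.80 and Slc37a4 at -1.39.

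In LATS_KO livers no gene of the 9 was called against TdTomato by edgeR, where 11% of all genes tested were called in either direction and 0.973% lower. The count was 0 by DESeq2 and 2 by limma voom (Slc37a4 higher, Pygl lower), and 1 of the 9, Pygl, had an unadjusted p under 0.05 by edgeR. Of all 13055 genes tested, DESeq2 called 2894 and limma voom 3504 in either direction, and 3300 had an unadjusted p under 0.05 by edgeR. Without TdTomato 1 and LATS_KO 3 the count was again 0, where 3.24% were called lower. In all 9 genes the LATS_KO libraries overlapped with the controls, while 1.9% of all genes tested were lower with no overlap. Pck1 had a minimum of 409.7, a median of 3086 and a maximum of 6259 CPM in LATS_KO libraries, against 3921, 3921, 7365 and 7252 CPM in TdTomato libraries. Its log2 fold change was -0.83 ± 0.55 (adjusted p = 0.39). G6pc spanned 28.8 to 881 CPM with a median of 506 CPM in LATS_KO libraries, against 566 to 812 CPM in TdTomato libraries, with a log2 fold change of -0.56 ± 0.72 (adjusted p = 0.69). For both genes the LATS_KO libraries reached from below the lowest control to the control range or above it.

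The glycogen genes had the same breadth. Gys2 ran from 12.0 to 323 CPM in LATS_KO libraries, against 60.3 to 216 CPM in TdTomato libraries (log2 fold change 0.01 ± 0.74, adjusted p = 0.99), so that the near-zero change averages libraries below and above the controls. Pygl had a minimum of 121, a median of 406 and a maximum of 609 CPM in LATS_KO libraries, against 520.4 to 844 CPM in TdTomato libraries (log2 fold change -0.84 ± 0.39, adjusted p = 0.20). Fbp1 spanned 231 to 1583 CPM in LATS_KO libraries, against 1388 to 1568 CPM in TdTomato libraries (log2 fold change -0.73 ± 0.46, adjusted p = 0.36).

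Pcx and Ppargc1a were high in other LATS_KO libraries than the rest. Pcx had 1117, 1113, 645, 744, 636 and 465 CPM in LATS_KO libraries 1 to 6, the first pair above all controls, whose highest value was 833 CPM (log2 fold change 0.17 ± 0.29, adjusted p = 0.79). Ppargc1a had 24.4, 19.5, 6.78, 8.29, 8.90 and 7.03 CPM in LATS_KO libraries 1 to 6, against 9.60 to 27.2 CPM in TdTomato libraries (log2 fold change -0.27 ± 0.44, adjusted p = 0.76). LATS_KO 1 and 2, low in Pck1, G6pc, Fbp1, Pygl and Gys2, were the LATS_KO libraries highest in Pcx and Ppargc1a. Slc37a4 (115 to 307 CPM in LATS_KO, 112 to 212 CPM in TdTomato libraries) and Gbe1 (75.5 to 153 CPM in LATS_KO, 76.4 to 131 CPM in TdTomato libraries) overlapped with the controls, with log2 fold changes of 0.20 and 0.14 and adjusted p of 0.73 and 0.79.

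Counted library by library against the range of the 4 controls, 5 of the 9 genes lay below it in both LATS_KO 1 and LATS_KO 2 and 7 in the poorly mapped LATS_KO 3, whereas LATS_KO 4 had 2 such genes, LATS_KO 5 had 1 and LATS_KO 6 had 3. Between 7 and 8 lay below it in each YAP_OE library. Of all 13055 genes tested, 18.9%, 23%, 29.7%, 10.53%, 8.72% and 9.4% lay below the control range in LATS_KO libraries 1 to 6, and 19.7% to 22.2% in YAP_OE libraries, so LATS_KO 1 to 3, with more of the 9 genes below it than LATS_KO 4 to 6, also had more of all genes below it. No label sets LATS_KO 1 to 3 apart from LATS_KO 4 to 6, so they were neither averaged nor tested as groups. The summed level of 6 cholangiocyte markers (Krt19, Krt7, Epcam, Sox9, Spp1, Cftr) was 4377, 1918, 1317, 201, 91.4 and 128 CPM in LATS_KO libraries 1 to 6. It was higher in libraries 1 to 3 than in 4 to 6, and the part of such cells in the levels was not tested. Of the uniquely mapped reads, the share that fell on no gene was 19.4% to 29.2% in LATS_KO 4 to 6 and 6.43% to 19.3% in the other libraries.

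**Figure D3:**
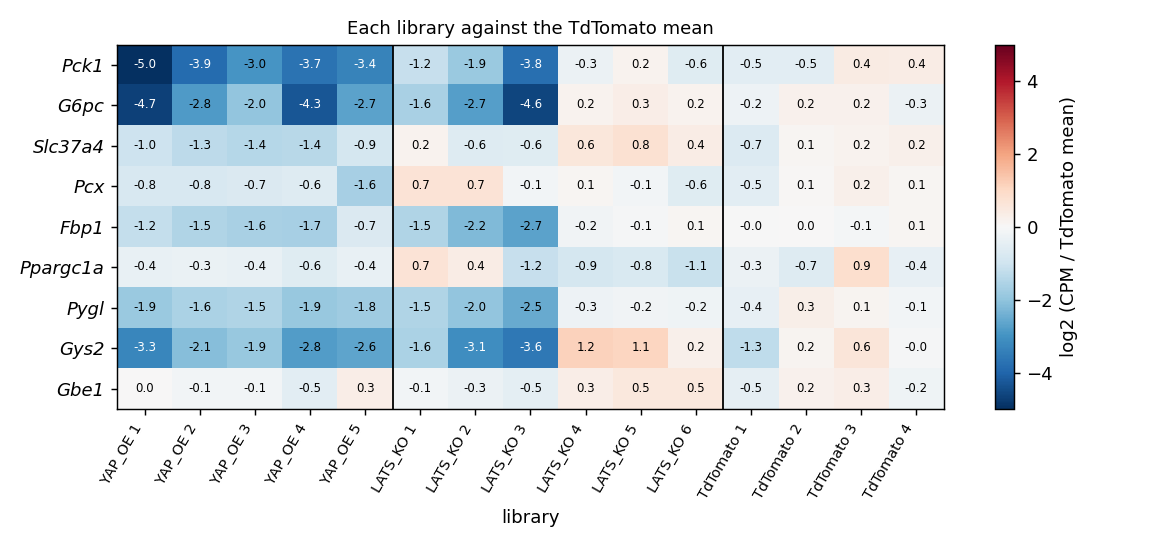
Log2 ratio of each library's CPM to the TdTomato mean for the 9 genes (rows) in the YAP_OE, LATS_KO and TdTomato libraries (columns, left to right), blue below and red above the control mean. All YAP_OE columns are blue for 8 genes, all but Gbe1, of which 7 lie below the control range, and the LATS_KO columns differ among themselves, with Gys2 at 12.0 CPM in LATS_KO 3 and 323 CPM in LATS_KO 4 around a control mean of 144 CPM.

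Set directly against each other, YAP_OE and LATS_KO livers differed in 2 of the 9 genes, both lower in YAP_OE, where 0.49% of all genes tested were called lower. Pck1 averaged 454 ± 203 CPM in YAP_OE (SD, n = 5) and 3154 ± 2114 CPM in LATS_KO (SD, n = 6), with a log2 fold change of -2.80 ± 0.57 (adjusted p = 0.031), and only LATS_KO 3 fell within the YAP_OE range. Slc37a4 averaged 78.9 ± 13.4 CPM in YAP_OE and 207 ± 78.3 CPM in LATS_KO, with no overlap, as in 1.95% of all genes tested, and a log2 fold change of -1.39 ± 0.28 (adjusted p = 0.027). Pcx had no overlap either but missed the threshold (-1.05 ± 0.28, adjusted p = 0.090), as did G6pc (-2.39 ± 0.74, adjusted p = 0.14) and Gys2 (-2.47 ± 0.75, adjusted p = 0.13).

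This comparison rested on single libraries. Neither call was made without LATS_KO 4, 5 or 6 or without YAP_OE 1, 2, 3 or 4, and without YAP_OE 5 only that of Slc37a4 was. Without LATS_KO 3 there were 4 calls, G6pc and Gys2 being added, against a background of 1.92% called lower. Without TdTomato 1 and LATS_KO 3 there were 6, against a background of 7.17% called lower, with Pcx and Pygl added as well. By edgeR on all 15 libraries, of the changes called against TdTomato in YAP_OE and not in LATS_KO, those of Pck1 and Slc37a4 differed between them. With the same libraries DESeq2 called 5 of the 9 genes, limma voom 8 and edgeR with the replicate number as a block none. Of all 13055 genes tested, these called 2.73%, 27.8% and 0.0306% lower, and limma voom called 7325 in either direction. Which genes differ therefore depends on the tool and the libraries kept.

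Per kilobase of exon the order of the genes differed between the groups. The length is that of all annotated exons of a gene, not of the transcripts expressed, so levels compare only roughly between genes. The same limit holds for the shares of paralogs below. In YAP_OE libraries Fbp1 led with 356 CPM per kb, followed by Pck1 with 132, Pcx with 79.9, G6pc with 37.0, Pygl with 30.3, Slc37a4 with 27.6, Gbe1 with 18.8, Gys2 with 9.85 and Ppargc1a with 1.74. In TdTomato libraries Pck1 led with 1637 CPM per kb, followed by Fbp1 with 871, G6pc with 286, Pcx with 147, Pygl with 99.7, Slc37a4 with 63.0, Gys2 with 54.1, Gbe1 with 19.6 and Ppargc1a with 2.29. In YAP_OE libraries the ranges of all neighbours from Pck1 down to Gys2 overlapped, and Fbp1 and Ppargc1a stood apart at the ends. In TdTomato libraries Pcx overlapped with Pygl, Slc37a4 with Gys2, and Gys2 with Gbe1, and the other neighbours were separate.

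For 5 of these steps another gene encodes a related enzyme, and none of these paralogs (Pygb, Pck2, G6pc3, Gys1 and Fbp2) was called lower. Pygb, the brain phosphorylase, rose in YAP_OE, with 41.7, 40.2, 43.3, 47.2 and 32.5 CPM in YAP_OE libraries, against 0, 3.03, 3.42 and 2.63 CPM in TdTomato libraries. The groups were far apart (log2 fold change 4.17 ± 0.87, adjusted p = 0.0048). Of the summed level of Pygb and Pygl per kb, Pygb made up 18.7% to 26.9% in YAP_OE libraries, 0.788% to 18.6% in LATS_KO libraries and 0% to 0.638% in TdTomato libraries. Pygl was the more abundant phosphorylase transcript per kb in every library.

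Pck2, the mitochondrial carboxykinase, was singled out after its values were seen. It had 29.5, 15.6, 16.9, 19.6 and 26.5 CPM in YAP_OE libraries, against 0, 3.70, 3.89 and 3.59 CPM in TdTomato libraries (log2 fold change 2.94 ± 1.02, adjusted p = 0.041). The groups were apart, but the call was lost on leaving out TdTomato 2, 3 or 4, LATS_KO 1 or any YAP_OE library. Its share of the summed Pck2 and Pck1 level per kb was 1.02% to 6.96% in YAP_OE, 0.0224% to 4.84% in LATS_KO and 0% to 0.0414% in TdTomato libraries. G6pc3, the ubiquitous glucose-6-phosphatase, and Gys1, the muscle synthase, did not pass the test in YAP_OE (log2 fold change 1.34, adjusted p = 0.23, and 0.74, adjusted p = 0.64). Their shares beside G6pc and Gys2 were 4.87% to 27.6% and 5.27% to 14.7% in YAP_OE libraries, against 0% to 0.883% and 0% to 1.21% in TdTomato libraries. TdTomato 1, with few genes detected, is listed at 0 for all 5 paralogs. Fbp2, the muscle bisphosphatase, was scarce, at 0.185 to 0.449 CPM in YAP_OE libraries, against 0 to 0.276 CPM in TdTomato libraries (log2 fold change 1.25 ± 0.99, adjusted p = 0.38). Cholangiocyte, macrophage and fibroblast markers were also higher in YAP_OE, and whether the paralog transcripts came from such cells was not tested.

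**Figure D4:**
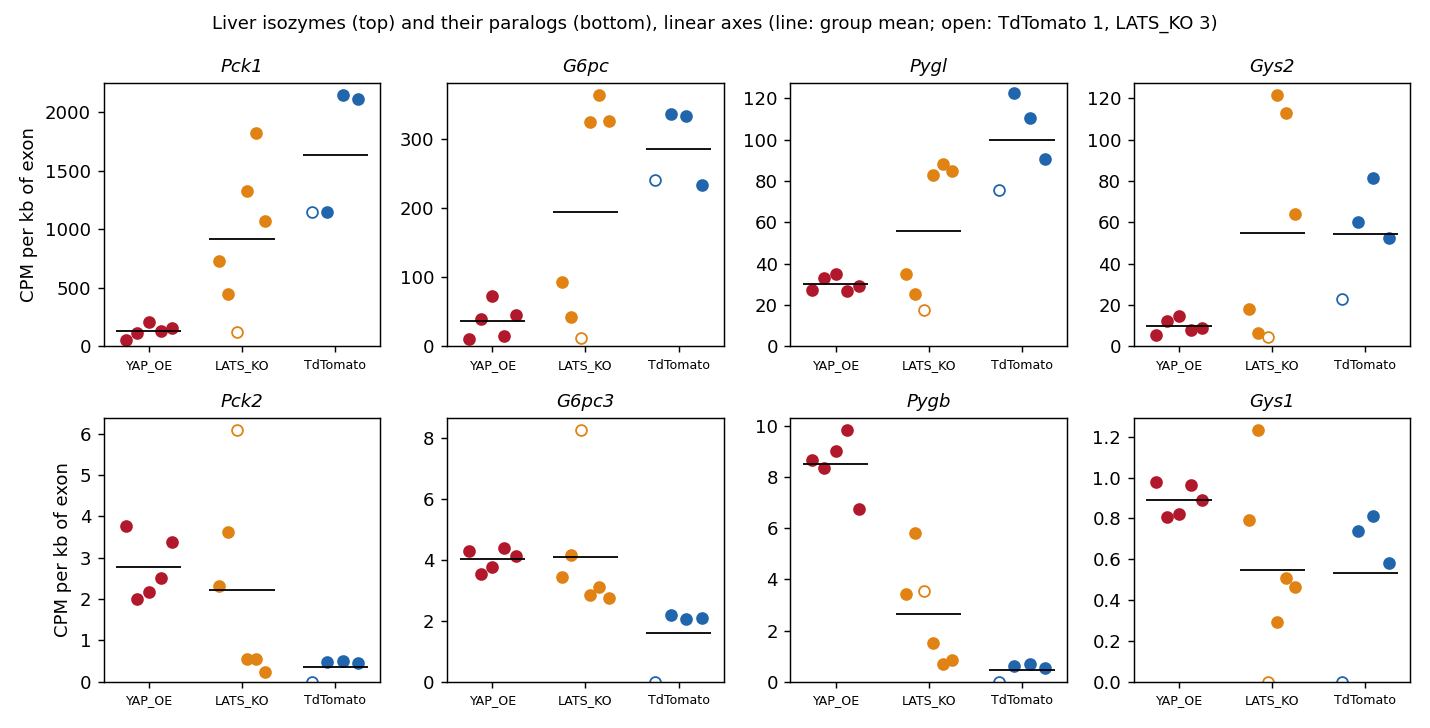
CPM per kb of exon of 4 liver enzymes (top) and 4 of the paralogs (bottom) in every library on linear axes that start at 0, with YAP_OE, LATS_KO and TdTomato from left to right, lines for group means and open points for TdTomato 1 and LATS_KO 3. The top panels have their YAP_OE points near the bottom, and the Pygb panel has its YAP_OE points at 6.76 to 9.82 CPM per kb, above all others.

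Many genes that feed carbon into the pathway fell in YAP_OE. Of 18 genes of substrate entry, 12 fell and 2 rose (Pck2 and Slc16a1, a carrier of lactate and pyruvate at 1.52 ± 0.35 with adjusted p = 0.0069), with a median log2 fold change of -1.05 against 0.17 over all genes tested, and between 9 and 13 fell on leaving out single libraries. Got1, the cytosolic aspartate aminotransferase, had 32.1, 39.6, 55.3, 33.0 and 51.3 CPM in YAP_OE libraries, against 297, 191, 328 and 169.8 CPM in TdTomato libraries. The groups did not overlap (log2 fold change -2.54 ± 0.32, adjusted p = 0.00056), and Got1 was also lower in YAP_OE than in LATS_KO (-2.07 ± 0.30, adjusted p = 0.0037). The amino acid catabolic enzymes Tat (tyrosine; -2.95 ± 0.43, adjusted p = 0.0012) and Gpt (alanine; -2.64 ± 0.50, adjusted p = 0.0030) and the mitochondrial aspartate-glutamate carrier Slc25a13 (-1.90 ± 0.37, adjusted p = 0.0036) fell as well, and these 4 calls held on leaving out any library. Gpt2, another alanine enzyme of the list, named after its values were seen, lay the other way. It had 614 to 882 CPM in YAP_OE libraries, against 216 to 458 CPM in TdTomato libraries, but was not called by edgeR. In LATS_KO 1 of the 18 fell, Tat (-1.42 ± 0.40, adjusted p = 0.032), a call lost without TdTomato 2, 3 or 4 or LATS_KO 1 or 2. By edgeR 5 of the 18 had an unadjusted p under 0.05 there, 2 of them lower, and 0 to 2 were called higher on leaving out single libraries. DESeq2 called 2 lower and 3 higher, and limma voom 2 lower.

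Of the steps that gluconeogenesis shares with glycolysis, and of glucose export, 8 of 9 listed genes were tested and 4 fell in YAP_OE, with a median of -0.67: Tpi1 (-1.35 ± 0.22, adjusted p = 0.0017), Pgk1 (-1.11 ± 0.23, adjusted p = 0.0047), Pgam1 (-0.87 ± 0.25, adjusted p = 0.019) and Gapdh (-0.77 ± 0.25, adjusted p = 0.030). Those of Tpi1 and Pgk1 held on leaving out any library, and without TdTomato 2 or 4 they were the only ones. Slc2a2, the glucose carrier of the hepatocyte membrane, had a log2 fold change of 0.27 (adjusted p = 0.53). For Pgam1 and Gapdh the YAP_OE libraries overlapped with the poorly mapped TdTomato 1. In LATS_KO none of the 8 was called by edgeR, where 1 had an unadjusted p under 0.05 and DESeq2 and limma voom called 1 each.

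Of 16 tested genes of glycogen turnover, 2 fell in YAP_OE, with a median of -0.16. Ppp1r3c, a subunit that brings protein phosphatase 1 to glycogen, had 4.31, 10.04, 7.63, 3.54 and 7.64 CPM in YAP_OE libraries, against 216, 182, 60.1 and 59.0 CPM in TdTomato libraries. All YAP_OE values lay far below the controls (log2 fold change -4.29 ± 0.94, adjusted p = 0.0055). The related subunit Ppp1r3b fell (-1.81 ± 0.61, adjusted p = 0.037). Ppp1r3c was called on leaving out any library, while Ppp1r3b was lost without TdTomato 2, 3 or 4 or any one YAP_OE library. Without TdTomato 1 alone 4 of the 16 fell, and without that library and LATS_KO 3, 5 fell. In LATS_KO none was called by edgeR, 2 had an unadjusted p under 0.05, and DESeq2 and limma voom called 2 each.

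Among 20 genes of hormonal and transcriptional control, 6 fell and none rose in YAP_OE, with a median of -0.51. They included Klf15, a glucocorticoid-induced regulator of amino acid catabolism (-1.65 ± 0.28, adjusted p = 0.0020), Creb3l3, a fasting-activated factor of the CREB family (-2.05 ± 0.56, adjusted p = 0.015), Cebpb (-1.20 ± 0.35, adjusted p = 0.019) and the adenylyl cyclase Adcy9 (-1.63 ± 0.47, adjusted p = 0.019). Gcgr, the glucagon receptor, named after its values were seen, had 52.8 to 93.3 CPM in YAP_OE libraries, against 239.6 to 332 CPM in TdTomato libraries (-1.94 ± 0.64, adjusted p = 0.035), a call lost on leaving out any TdTomato or YAP_OE library. The count fell to 3 without TdTomato 3, TdTomato 4 or YAP_OE 1, and was 10 without TdTomato 1 and LATS_KO 3. Foxo1, Crtc2 and Creb1, which carry insulin and glucagon signals to these promoters, had log2 fold changes of -0.45, -0.12 and -0.12 (adjusted p 0.20, 0.80 and 0.82). In LATS_KO 1 of the 20 was called, Sik1, a kinase that restrains CREB signalling (1.46 ± 0.43, adjusted p = 0.041), a call lost on leaving out any one of TdTomato 1 to 4, LATS_KO 1 and 2, and YAP_OE 1 to 4.

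**Figure D5:**
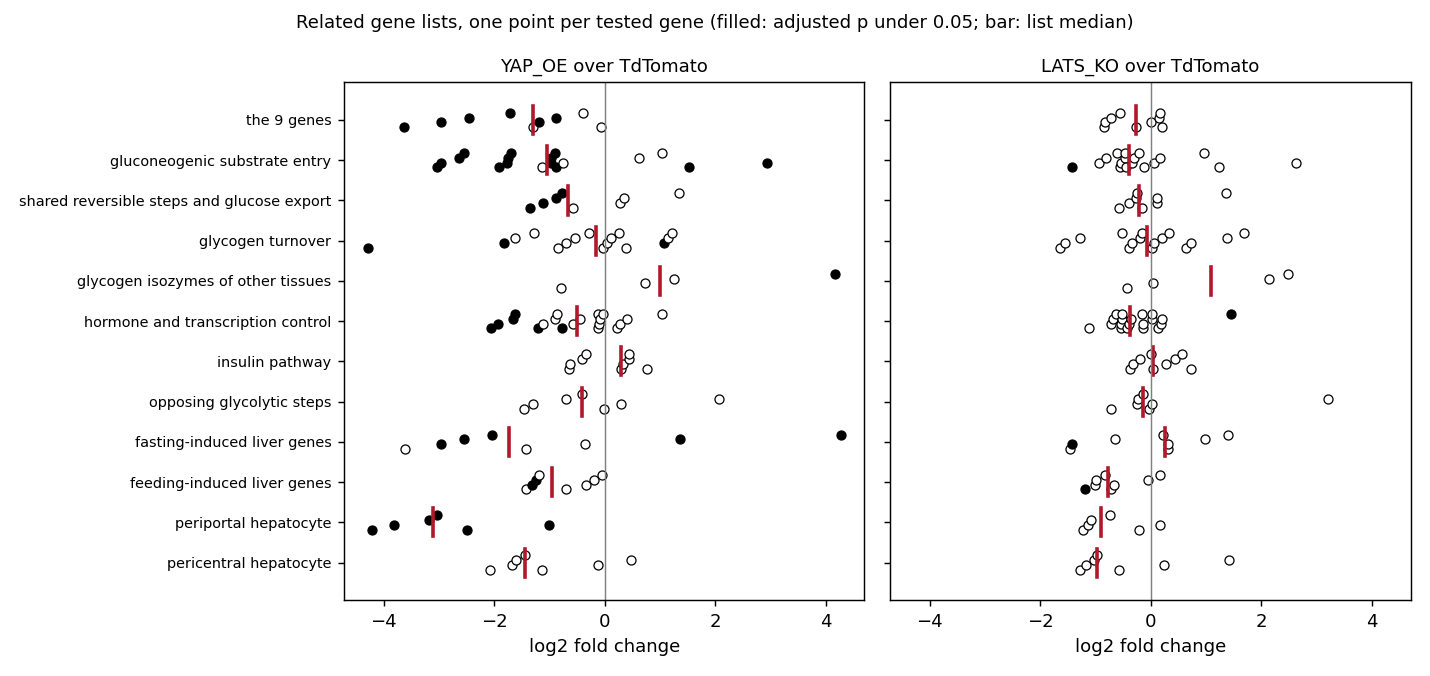
Log2 fold change of every tested gene of the 9 and of related lists (rows) for YAP_OE over TdTomato (left) and LATS_KO over TdTomato (right), with filled points for an adjusted p under 0.05 and bars for list medians. In YAP_OE the bars of glycogen isozymes of other tissues (0.997) and the insulin pathway (0.30) lie above 0, and all others lie below it. The lowest are those of periportal (-3.11), fasting-induced (-1.73) and pericentral (-1.44) genes, followed by the 9 genes (-1.29) and substrate entry (-1.05).

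Gluconeogenic enzymes are known to be more abundant in periportal than in pericentral hepatocytes, and periportal markers were low beside them. All 6 tested of 7 periportal markers fell in YAP_OE (Cyp2f2, Hal, Sds, Gls2, Hsd17b13 and Arg1, median -3.11), also on leaving out any library, and Ass1 did not pass the filter. Sds is also on the list of substrate entry. Their summed level was 704 to 1154 CPM in YAP_OE, 943 to 6521 CPM in LATS_KO and 5537 to 7604 CPM in TdTomato libraries. In LATS_KO none of them was called by edgeR or DESeq2, limma voom called 1, and none had an unadjusted p under 0.05. Pericentral markers were also lower on the median, at -1.44 in YAP_OE and -0.97 in LATS_KO, though 0 of the 7 were called by edgeR in either. Without TdTomato 1 and LATS_KO 3, 1 of the 7 was called lower in YAP_OE. The sum of the 7 pericentral markers overlapped between groups, at 292 to 2307 CPM in YAP_OE, 146 to 5551 CPM in LATS_KO and 1175 to 4757 CPM in TdTomato libraries. The part of zonation in the levels of the 9 genes was not tested.

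In YAP_OE livers all 8 macrophage markers, 6 of 6 stellate and fibroblast markers, 4 of 5 tested cholangiocyte markers and 2 of 6 endothelial markers rose against TdTomato by edgeR, and the counts on leaving out single libraries were 8, 4 to 6, 4 to 5 and 0 to 5. In LATS_KO livers 8, 3, 4 and 2 of these lists were called higher, with 5 to 8, 0 to 5, 1 to 5 and 0 to 5 on leaving out single libraries, so these counts depended on which libraries were kept. In LATS_KO all 4 lists had their lowest count without TdTomato 2, cholangiocytes and endothelial markers also without TdTomato 3, endothelial and fibroblast markers also without TdTomato 4, and endothelial markers also without LATS_KO 2. In YAP_OE no endothelial marker was called without TdTomato 3 or YAP_OE 4, and 4 fibroblast markers were called without TdTomato 4. Without TdTomato 1 and LATS_KO 3, YAP_OE had 8, 6, 5 of 6 and 5 and LATS_KO had 8, 4, 2 of 6 and 4. In the fit of the LATS_KO and TdTomato libraries alone no macrophage marker was called. Of 8 hepatocyte markers 2 fell in YAP_OE (1 to 6 without single libraries) and 0 in LATS_KO (0 to 1), and neither of the 2 tested kidney tubule markers was called by edgeR. The median log2 fold change of the hepatocyte markers was -1.10 in YAP_OE, beside -1.29 for the 9 genes, and -0.44 in LATS_KO, beside -0.27. The macrophage markers had summed levels of 397 to 825 CPM in YAP_OE, 147 to 964 CPM in LATS_KO and 4.52 to 18.05 CPM in TdTomato libraries. The cholangiocyte sum was 3711 to 6183 CPM in YAP_OE, 91.4 to 4377 CPM in LATS_KO and 24.1 to 47.9 CPM in TdTomato libraries. The stellate and fibroblast sum was 20.8 to 143 CPM in YAP_OE, 0 to 15.2 CPM in LATS_KO and 0.0774 to 1.83 CPM in TdTomato libraries, and that of endothelial markers was 90.1 to 144 CPM in YAP_OE, 11.8 to 222 CPM in LATS_KO and 13.2 to 43.3 CPM in TdTomato libraries. Markers of kidney tubule, another tissue with G6pc and Pck1, summed to at most 0.704 CPM in YAP_OE, 8.44 CPM in LATS_KO and 2.37 CPM in TdTomato libraries. The part of these cells in the levels of the 9 genes was not tested.

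Genes known to follow fasting changed in both directions. Of 8 fasting-induced genes, 3 fell in YAP_OE (Tat, Angptl4 at -2.05 ± 0.52 with adjusted p = 0.011, and Lpin1 at -2.55 ± 0.72 with adjusted p = 0.017) and 2 rose (Fgf21, and Acot1 at 1.37 ± 0.47 with adjusted p = 0.040). The median of the 8 was -1.73, and without TdTomato 1 and LATS_KO 3, 5 fell and 2 rose. Fgf21, a fasting hormone of the liver, had 18.8, 5.15, 3.55, 3.93 and 15.1 CPM in YAP_OE libraries, against 0, 0.883, 0 and 0.958 CPM in TdTomato libraries (log2 fold change 4.28 ± 1.32, adjusted p = 0.025). The call was lost without TdTomato 3 or YAP_OE 1, and that of Lpin1, which had 657 CPM in TdTomato 3, without that library. That of Acot1 was lost on leaving out any one TdTomato or YAP_OE library. Of 8 feeding-induced lipogenic genes, with a median of -0.95, 2 fell, Elovl6 (-1.31 ± 0.33, adjusted p = 0.0096) and Acly (-1.25 ± 0.35, adjusted p = 0.016), the call of Acly being lost without TdTomato 2. In LATS_KO, Tat fell among the fasting genes and Acly (-1.20 ± 0.33, adjusted p = 0.031, lost without TdTomato 2 or 3 or LATS_KO 1 or 2) among the feeding genes.

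The genes most like Pck1, G6pc and Ppargc1a in their pattern over the 15 libraries were ranked by Spearman's rho of log2 CPM, as a description of libraries that share groups. Closest to Pck1 were Slc37a1 (0.946), Arg1 (0.943), the urea cycle arginase, and Cyp2d26 (0.939), a member of a family with near-identical copies whose counts are uncertain. Closest to G6pc were Aqp9 (0.982), the glycerol channel of hepatocytes, Sult1b1 (0.971) and Zcchc24 (0.954). Those closest to Ppargc1a, Asap2 (0.871), Hipk3 (0.861) and Dcun1d3 (0.854), were less alike. Over the 13 libraries without the poorly mapped pair the values lay between 0.808 and 0.978.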

How the data were processed

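The authors deposited raw counts per gene and library in the layout of STAR, with columns for unstranded, forward and reverse reads. The submitters' processing notes name FastQC, Trimmomatic, STAR and the build mm10, without versions. The kits were directional per the labels' protocols, and the reverse column was used, since the forward column held 0.966% to 1.99% of strand-assigned reads. Lines that name no gene (unmapped, multiply mapped, unassigned, ambiguous) held 14.2% to 92.5% of reads and were left out. Reads that map to several places are not in the gene counts.

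From these counts, library sizes were scaled by TMM, genes were kept by filterByExpr, and edgeR 4.0.16 (glmQLFit with robust estimation, glmQLFTest; R 4.3.3) was fitted to all 15 libraries with group as the only term (12 residual degrees of freedom, two-sided, Benjamini-Hochberg over 13055 genes, threshold 0.05). Means with SD are of CPM, fold changes carry standard errors. Levels per kb used exon unions of GENCODE M21 (GRCm38, also called mm10), which also gave gene coordinates. No pair of replicates agreed within sampling noise. Whether each library is a different mouse is not in the labels, and the p-values therefore cover only the spread between libraries, which may be technical. The procedure was also run on simulated counts with the same spread for every gene and group and no poorly mapped library. The libraries here differ in both respects, so that run does not measure how reliable the calls above are. DESeq2 1.42.0, limma 3.58.1 (voom with quality weights), RLE factors, other filters, the unstranded column, fits of 2 groups, the replicate number as a block and leaving out libraries were the alternatives.

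The 9 genes, the 9 other pathway lists and the 8 marker lists were chosen with earlier results of these data known. From each pathway list up to 4 genes with the smallest adjusted p against TdTomato were to be named, plus Yap1, Lats1 and Lats2 as checks of the labels, and 3 most alike genes each for Pck1, G6pc and Ppargc1a. Others are named as examples, as listed markers, or as stated, and single values of some listed genes are not reported here. The comparisons of YAP_OE and LATS_KO with TdTomato share the 4 control libraries, so no relation between them is given.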

Additional observations from a re-analysis of the deposited data

Results flagged for a closer look

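Of 27 sets of libraries (9 genes in 3 groups), 3 held a library whose gap to its nearest neighbour was large for the range of its group by Dixon's criterion at 95%, where chance gives about 1 in 20. Pcx stood at 224 CPM in YAP_OE 5, below the other 4 YAP_OE libraries at 398 to 449.6 CPM, with a gap of 0.77 of the range (critical value 0.71). Ppargc1a stood at 10.01 CPM in YAP_OE 4, below the other 4 at 11.7 to 12.1 CPM, with a gap of 0.813 of a narrow range. In the controls, Ppargc1a stood at 27.2 CPM in TdTomato 3, above the other 3 at 9.60 to 12.2 CPM, with a gap of 0.851 of the range (critical value 0.829).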

How the results depend on the processing

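Log2 fold changes of the 9 genes kept direction and side of the threshold in 181 of 216 values for YAP_OE against TdTomato, 203 of 216 for LATS_KO against TdTomato and 180 of 216 for YAP_OE against LATS_KO. For YAP_OE against TdTomato, 6 genes were called, 5 to 8 under the alternatives that keep all libraries, 7 without TdTomato 1 and LATS_KO 3, and 4 to 7 on leaving out single libraries. For LATS_KO against TdTomato, limma voom called 2 and all other alternatives 0. For YAP_OE against LATS_KO, DESeq2 called 5, limma voom 8, the fit of only these groups 1, the replicate block 0, the fit without TdTomato 1 and LATS_KO 3 6, and fits without single libraries 0 to 4. Over all genes, LATS_KO against TdTomato had 1438 calls, and 1 in the fit of these groups alone, 740 with the replicate block, 2894 by DESeq2 and 3504 by limma voom. YAP_OE against TdTomato had 3744, against 8872 by limma voom, and YAP_OE against LATS_KO 129, against 779, 7325 and 13 by DESeq2, limma voom and the block. Without TdTomato 1 and LATS_KO 3 the calls were 2245, 6416 and 1688 in this order, and without single libraries 588 to 1798, 2585 to 4973 and 36 to 389. The cause of these differences was not tested. RLE factors moved the median of all genes in YAP_OE against TdTomato to 0.34, where it was 0.17 by TMM. With them Pcx was at -0.71 (adjusted p = 0.086).

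Values that changed sign were all uncalled. Gbe1 in YAP_OE against TdTomato was 0.10 with RLE factors and by DESeq2, and -0.19 to 0.062 without single libraries. Pcx in LATS_KO against TdTomato was -0.20 by limma voom. Gys2 there was -0.043 in the fit of the groups alone, -0.72 with the replicate block and -0.39 to 0.28 without single libraries. Slc37a4 and Gbe1 there were -0.040 and -0.081 with the block. Ppargc1a was 0.36 by limma voom in YAP_OE against LATS_KO, and without single libraries -0.25 to 0.18 there, -0.58 to 0.17 in LATS_KO and -0.56 to 0.051 in YAP_OE against TdTomato.

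Same-numbered libraries did not deviate together (r -0.25 to 0.23), so the replicate numbers were not taken as pairs. With the replicate block 5 of the 9 genes were called in YAP_OE against TdTomato, with Fbp1 at -1.54 gained (adjusted p = 0.024) and Gys2 at -2.53 (adjusted p = 0.053) and Pcx at -0.78 (adjusted p = 0.068) lost. TdTomato 1 and LATS_KO 3 had the fewest genes detected, 8501 and 9710. Leaving out single libraries for the marker lists was chosen after the data were seen.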

Other observations

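Insulin signalling and the glycolytic steps that oppose gluconeogenesis gave no call by edgeR on all 15 libraries in YAP_OE against TdTomato. Without TdTomato 1 and LATS_KO 3 it called 2 genes of the insulin pathway lower, and 2 of the opposing glycolytic genes lower and 1 higher. In that fit 6416 of all 13256 genes tested were called, 21.2% being called lower, so these counts do not set the lists apart from all genes. Without TdTomato 1 alone edgeR called 1 insulin gene and 2 glycolytic genes lower, where 12.5% of all genes tested were called lower. Without TdTomato 4, LATS_KO 2 or LATS_KO 6 it called 1 insulin gene higher. Of 9 genes of the insulin pathway, 1 had an unadjusted p under 0.05 by edgeR, DESeq2 called 1 higher, and limma voom called 4 lower and 1 higher. Of all 13055 genes tested, 5164 had such an unadjusted p, DESeq2 called 5030 and limma voom 8872. Igfbp1, which insulin represses, averaged 262 ± 43.9 CPM in YAP_OE (SD, n = 5) and 191 ± 66.0 CPM in TdTomato libraries (SD, n = 4; log2 fold change 0.45 ± 0.27, adjusted p = 0.23). Akt1 had a log2 fold change of 0.77 ± 0.29 (adjusted p = 0.060) and Akt2 one of -0.63 ± 0.33 (adjusted p = 0.17). Of 7 opposing glycolytic genes, 0 had an unadjusted p under 0.05, DESeq2 called 1 higher, and limma voom called 3 lower and 2 higher. Pklr, the liver pyruvate kinase, had a log2 fold change of -1.29 ± 0.64 (adjusted p = 0.15).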
